A study of Mus musculus with 4 samples.

Results

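Skeletal muscle genes were examined in RNA from whole cochleas of *Meis2* mutant and wild-type mouse embryos. The set held 44 genes, chosen by name from the myogenic, sarcomere and neuromuscular genes of the mouse, and each was read by 1 probe set carrying that single symbol, of 19938 genes and 35556 probe sets on the array. The mutants were *Meis2* flox/flox; *Pax2* Cre/+ embryos, labelled Meis2 ko, in which a Cre driven by *Pax2* regulatory sequences acts from the early otic placode and vesicle on, while tissue outside that lineage keeps *Meis2*. The other embryos were labelled wild type, and the labels do not say whether they carried the floxed alleles or the Cre. All cochleas were taken at E15. The arrays were Mouse Gene ST arrays, 1 for each of mutant replicates 1 and 2 and wild-type replicates 2 and 3, on which a probe set combines short probes placed along a transcript. Neither the paper nor the labels say whether the array samples of a genotype were separate animals or pools, so the p-values measure only the spread between these arrays, which may be technical.

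Skeletal muscle is built in steps. The basic helix-loop-helix factors of the MyoD family commit progenitors and switch on the contractile genes, mostly by binding E-boxes in DNA together with MEF2 proteins. Myoblasts then fuse into fibers, in which myosin thick filaments slide along actin thin filaments, troponin and tropomyosin set the response to calcium, and titin and the Z-disc hold the filaments in register. A nerve impulse reaches the fiber through acetylcholine receptors and is passed to the calcium store by a voltage sensor and a release channel. Embryonic muscle uses its own myosin heavy chain, its own alkali light chain, cardiac actin and a fetal receptor subunit, which later forms replace. The cochlea itself holds no skeletal muscle, but the middle ear and the head around it do.

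Signals are log2 values that the authors computed with robust multi-array averaging (RMA), and differences are mutant minus wild type. They were tested in limma, a linear model that borrows information on the spread from the whole table, and p-values were adjusted by the Benjamini-Hochberg method across the 35556 probe sets, with calls made below 0.05. The 2 mutant arrays correlated with each other at Pearson's r = 0.996 and the 2 wild-type arrays at 0.993, against 0.966 to 0.971 between genotypes, across probe sets that are not independent. Markers of the cochlea were bright on all arrays, as with *Oc90*, which encodes an otoconial protein of the inner ear epithelium, at 12.73 and 12.73 in mutants and 12.88 and 12.83 in wild type. *Meis2* was at 9.61 and 9.80 in mutants and at 9.64 and 9.38 in wild type, with overlapping groups, and whether its probe set covers the deleted part was not determined, so it does not check the labels. The sex of the tissue moved with genotype. *Eif2s3y*, on the Y chromosome, was at 4.68 and 4.88 in mutants and at 8.76 and 7.77 in wild type, and *Xist*, made from the inactive X chromosome, was at 11.83 and 11.84 in mutants and at 5.54 and 11.51 in wild type. Genotype and the share of male tissue therefore cannot be told apart in these arrays, for the muscle genes as for any other. Wild-type replicate 3 carried both signals, as a mix of male and female tissue would, and wild-type replicate 2 only the Y-linked one. The spread between the wild-type arrays thus includes a difference in sex.

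Most muscle genes read higher on the mutant arrays. Of the 44 genes, 27 rose and 0 fell past the threshold in limma, and 17 did not pass. Of all probe sets, 37.3% were called, with 21.6% higher in mutants and 15.7% lower. Of the 19938 genes, each at its brightest probe set, 4822 were called higher and 3227 lower. The share called higher is thus larger by gene than by probe set, and most counts by role below are set against probe sets. The difference was positive for 40 genes and negative for 4. In 37 genes both mutant arrays lay above both wild-type arrays, a pattern that 49.7% of all probe sets showed, and in 3 genes both mutant arrays lay below, against 26.4% of all probe sets. The median difference was 0.41, with quartiles of 0.31 and 0.56, beside a median of 0.11 over all probe sets. The differences were small for most genes, and 2 genes, *Myh3* and *Actc1*, were 2-fold or more higher, a size reached by 1.81% of all probe sets. The mean of the 44 signals was 6.54 and 6.74 on the mutant arrays and 6.12 and 6.27 on the wild-type arrays. Whether more muscle cells or more RNA per cell gave these signals cannot be told apart in bulk tissue.

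**Figure D1:**
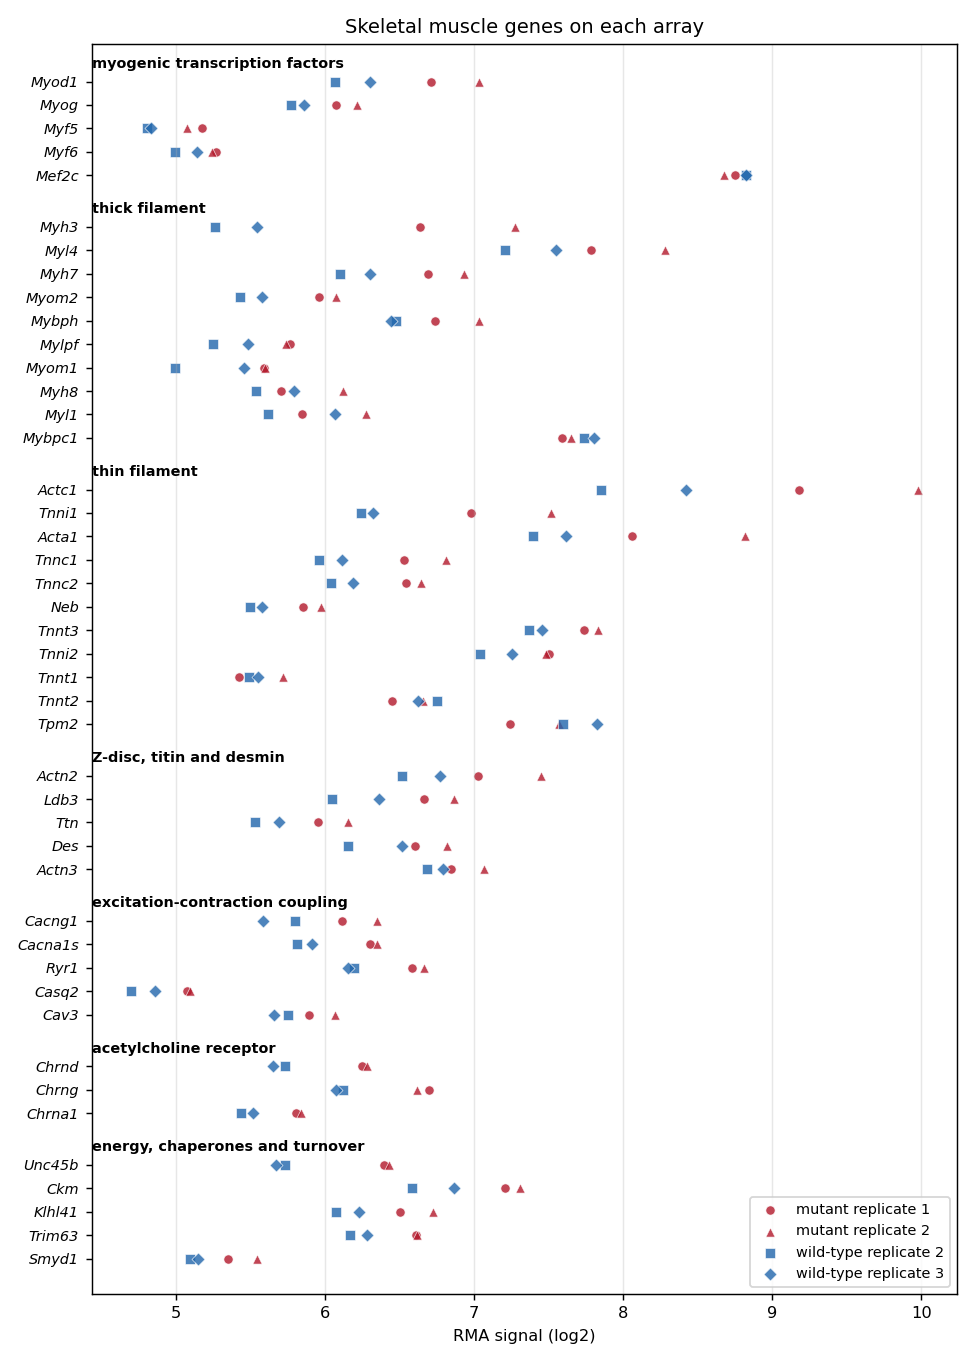
RMA signal (log2, x axis) of each of the 44 skeletal muscle genes on the 2 mutant arrays (red) and the 2 wild-type arrays (blue), grouped by role. In 37 genes both red points lie to the right of both blue points, and in *Mef2c*, *Mybpc1* and *Tpm2* both lie to the left.

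The level at which a gene was read mattered for this comparison. Most muscle genes were dim, with a mean level under 7 for 36 of the 44. The median of all probe sets with a mean level of 5 to 6 was 0.19 higher in mutants and that of 6 to 7 was 0.20 higher, while probe sets of 8 to 9 had a median of -0.02. Olfactory and vomeronasal receptor genes, which serve as a reference for genes the cochlea should not use, had a median level of 4.62 and 4.63 on the mutant arrays and of 4.43 and 4.47 on the wild-type arrays, and 198 of 1190 were called higher and 0 lower. Ribosomal protein genes, which are bright, had a median level of 11.09 and 10.98 in mutants and of 11.68 and 11.82 in wild type, with 3 of 65 higher and 39 lower. The part of this level-dependent shift in the muscle differences was not tested beyond the values given here.

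Set against probe sets of their own level, the muscle genes were still mostly on the higher side. Of the 15 muscle genes with a level of 5 to 6, 8 were called higher, against 21.6% of the probe sets of that level, and their median difference was 0.35. Of the 19 with a level of 6 to 7, 15 were called higher, against 29.2%, with a median difference of 0.54. Over the range of 5 to 8 that holds most of the genes, 25.2% of probe sets were called higher, 11.7% were called lower and 54.6% had both mutant arrays above both wild-type arrays. In all, 38 of the 44 genes lay above the median of their level class and 13 above its 90th percentile. *Myh3* and *Actc1* alone among the 44 passed the 99th percentile, which was 1.18 for the class of *Myh3* and 1.36 for that of *Actc1*. These are descriptions, since genes of a tissue move together and are not independent.

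**Figure D2:**
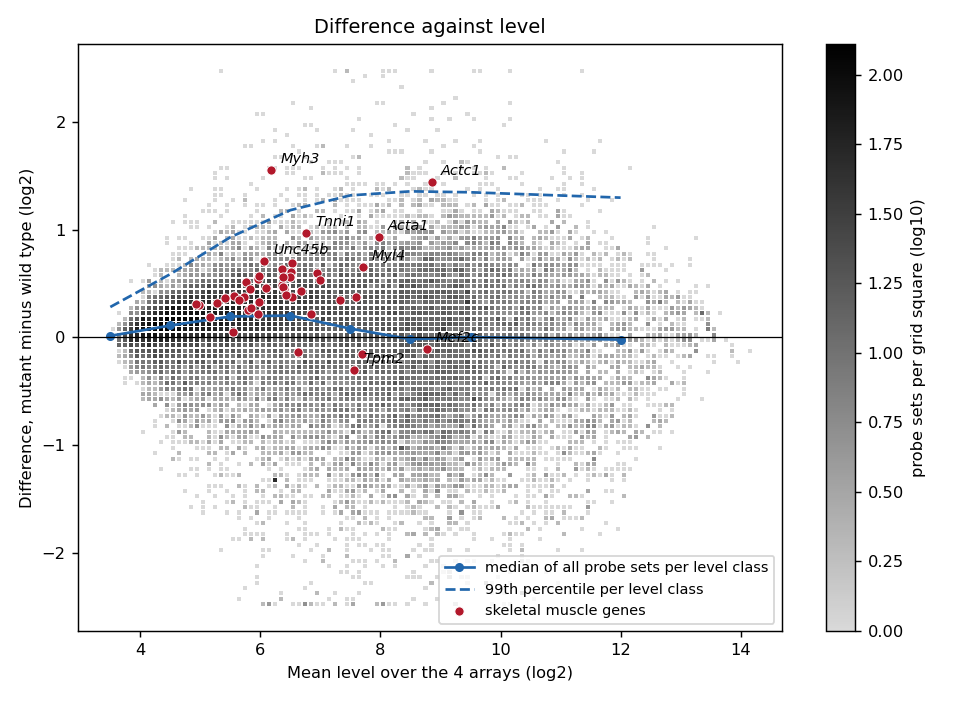
Difference (mutant minus wild type, log2, y axis) against mean level over the 4 arrays (log2, x axis) for all probe sets (grey squares, darker where more probe sets fall, with those beyond the plotted range drawn at its edge) and for the 44 muscle genes (red), with the median (solid blue) and 99th percentile (dashed blue) of all probe sets in each level class. *Myh3* and *Actc1* lie above the dashed line, and the solid line reaches 0.20 at a level of 6 to 7.

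The count of called genes depended on how the arrays were scaled and on single arrays. A cyclic loess between arrays, which lets the shift depend on the level, was chosen after seeing the data. After it the median of all probe sets was 0.01 and the median difference of the muscle genes was 0.24. Of the 44 genes, 6 were called higher, a share close to the 12.8% of all probe sets called higher. The count of calls thus did not set the muscle genes apart from the array after cyclic loess. The 6 genes were *Myh3*, *Actc1*, *Tnni1*, *Chrng*, *Chrnd* and *Unc45b*. Median scaling called 15 of the 44 higher, against 14.2% of all probe sets, and repeated quantile normalization called 16, against 17.1%. Significance analysis of microarrays (SAM), the method the study names, called 38 higher, against 50% of all probe sets, and 3 lower, against 26%. The 3 other scalings thus called fewer muscle genes than the deposited values did, and SAM called more. Without mutant replicate 1, limma called 12 higher (7.2% of all probe sets), and without mutant replicate 2 it called 3 (5.62%), which were *Myh3*, *Tnni1* and *Unc45b*. Without wild-type replicate 2 it called 8 (15.4%), which were *Myh3*, *Myom2*, *Ryr1*, *Cacna1s*, *Cacng1*, *Chrng*, *Chrnd* and *Unc45b*, and without wild-type replicate 3 it called 21 (14.3%). *Myh3* and *Unc45b* were called higher under all 12 alternative fits of limma, with highest adjusted p-values of 0.0309 and 0.0417.

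Promoter windows are shown for 5 of the 6 genes still called after cyclic loess, since their calls depended least on the scaling, and no window was matched for *Chrnd*. Each runs from 250 bases before to 50 bases after a transcription start in the RefSeq tables for GRCm38.p6, 5′ to 3′ on the strand of the gene. Capitals mark E-boxes, the motif CANNTG that MyoD family proteins and many other helix-loop-helix factors bind. The windows are chr11:67078050-67078349 on the plus strand for *Myh3*, chr2:114052826-114053125 on the minus strand for *Actc1*, chr1:135799171-135799470 on the plus strand for *Tnni1*, chr11:82911003-82911302 on the plus strand for *Unc45b* and chr1:87205561-87205860 on the plus strand for *Chrng*.
Myh3: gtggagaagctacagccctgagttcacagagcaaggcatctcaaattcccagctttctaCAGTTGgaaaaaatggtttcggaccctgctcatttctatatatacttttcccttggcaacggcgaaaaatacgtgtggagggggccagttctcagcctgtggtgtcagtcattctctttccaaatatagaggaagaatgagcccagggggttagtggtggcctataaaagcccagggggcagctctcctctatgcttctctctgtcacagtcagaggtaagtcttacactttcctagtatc
Actc1: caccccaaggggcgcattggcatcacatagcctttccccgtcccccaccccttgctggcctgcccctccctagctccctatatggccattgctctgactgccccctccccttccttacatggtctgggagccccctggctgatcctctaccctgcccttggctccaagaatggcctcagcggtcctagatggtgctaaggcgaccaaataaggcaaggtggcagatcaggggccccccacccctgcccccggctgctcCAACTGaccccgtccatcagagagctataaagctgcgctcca
Tnni1: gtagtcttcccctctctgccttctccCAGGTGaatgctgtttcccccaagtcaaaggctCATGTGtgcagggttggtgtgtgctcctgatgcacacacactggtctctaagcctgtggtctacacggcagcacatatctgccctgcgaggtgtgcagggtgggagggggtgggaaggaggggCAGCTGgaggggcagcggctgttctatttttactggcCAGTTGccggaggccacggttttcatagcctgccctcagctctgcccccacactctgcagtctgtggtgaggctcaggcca
Unc45b: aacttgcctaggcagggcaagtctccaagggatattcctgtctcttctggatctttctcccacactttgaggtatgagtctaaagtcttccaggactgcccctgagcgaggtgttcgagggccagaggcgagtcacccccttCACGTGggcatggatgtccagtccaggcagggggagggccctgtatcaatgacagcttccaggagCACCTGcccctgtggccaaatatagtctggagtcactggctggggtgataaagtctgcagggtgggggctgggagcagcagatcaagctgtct
Chrng: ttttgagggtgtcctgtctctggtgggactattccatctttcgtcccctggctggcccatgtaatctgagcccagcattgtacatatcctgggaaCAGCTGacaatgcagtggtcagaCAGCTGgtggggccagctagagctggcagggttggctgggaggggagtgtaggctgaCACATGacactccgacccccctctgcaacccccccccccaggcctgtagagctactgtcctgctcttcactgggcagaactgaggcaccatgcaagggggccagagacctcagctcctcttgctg

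*Myh3* held 1 E-box, CAGTTG, 191 bases before the start. *Actc1* held a CArG box, the motif of serum response factor, 47 bases before the start, and its 1 E-box, CAACTG, began at base 9 after it. In *Tnni1* 4 E-boxes lay 224, 191, 68 and 31 bases before the start, and this window overlaps a second one for the same gene. *Unc45b* held 2, at 108 and 43 bases before the start, and *Chrng* held 3, of which those at 155 and 132 bases read CAGCTG, the form that MyoD family proteins prefer.

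Windows were matched for 35 of the 44 genes, 41 in all, and both strands were searched. An E-box was found in 34 of the 41, or 82.9%, against 72.3% of the 32851 windows in the table. CAGCTG, a form of CANNTG whose matches are counted there too, was found in 17 of 41 or 41.5%, against 16.3%. CArG boxes were found in 5 windows or 12.2%, against 1.63%, and MEF2 sites in 4 or 9.76%, against 3.19%. Some windows of a gene overlap, and a site they share is counted in each. This holds for the CArG box of *Ldb3* and a CAGCTG of *Tnni1*. By gene, an E-box was found in 30 of the 35, CAGCTG in 16, a CArG box in 4 and a MEF2 site in 4. No share by gene is at hand for all windows, so these gene counts have no background. TGACAG, the hexamer that Meis proteins bind, was found in 13 windows or 31.7%, against 19.2%, and among the 5 printed windows it was found in *Unc45b*, 59 bases before the start, and on the opposite strand in *Myh3*. A match describes the letters of a window and is not evidence of binding.

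Of the myogenic transcription factors, 3 of 5 rose, against 21.6% of all probe sets, and 2 did not pass. *Myod1*, which commits cells to muscle, was at 6.71 and 7.04 in mutants and at 6.07 and 6.30 in wild type, a difference of 0.69 ± 0.15 (SE, n = 2 each; limma adjusted p = 0.0244). *Myog*, which drives the differentiation of myoblasts, was at 6.08 and 6.21 in mutants and at 5.77 and 5.86 in wild type (0.33 ± 0.09, adjusted p = 0.0465 in limma). *Myf5*, usually the first of the family to be made, was at 5.17 and 5.07 in mutants and at 4.81 and 4.83 in wild type (0.30 ± 0.08, adjusted p = 0.0442 in limma). In all 3 the mutant arrays lay above the wild-type arrays, but *Myf5* was below 5.33, the 90th percentile of the receptor probe sets. *Myf6*, the fourth member of the family and abundant in mature fibers, was as dim, at 5.27 and 5.25 in mutants and at 4.998 and 5.14 in wild type, and did not pass (adjusted p = 0.161). *Mef2c*, a MADS-box partner of these factors that also serves in heart, neural crest and neurons, was brighter, at 8.75 and 8.67 in mutants and at 8.82 and 8.82 in wild type, and did not pass (-0.11, adjusted p = 0.319). After cyclic loess none of the 5 was called by limma, and the differences were 0.49 for *Myod1* (adjusted p = 0.0637), 0.11 for *Myog* (0.404) and 0.16 for *Myf5* (0.211).

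Of the thick filament genes, 5 of 10 rose, against 21.6% of all probe sets, and 5 did not pass. Their median difference was 0.41. *Myh3*, the embryonic myosin heavy chain, showed the widest gap of all 44 genes. It was at 6.64 and 7.27 in mutants and at 5.27 and 5.54 in wild type, so that its wild-type signals were close to 5.33, the 90th percentile of the receptor probe sets. The difference of 1.55 (95% confidence interval 0.95 to 2.15) is 2.93-fold (limma adjusted p = 0.0095), and after cyclic loess it was 1.33. *Myh7*, the slow heavy chain that the heart also uses, was at 6.69 and 6.93 in mutants and at 6.10 and 6.30 in wild type (0.61 ± 0.13, limma adjusted p = 0.0216). *Myom2*, a myomesin that ties thick filaments together at the M-band, was at 5.96 and 6.07 in mutants and at 5.43 and 5.58 in wild type (0.51 ± 0.10, limma adjusted p = 0.0167). In these 3 genes the groups did not overlap. *Mybph*, a myosin-binding protein, and *Mylpf*, the fast regulatory light chain, rose by 0.43 and 0.38 with limma adjusted p-values of 0.0483 and 0.0465, just inside the threshold.

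The other thick filament genes differed in how their arrays lay. *Myl4*, the alkali light chain of embryonic muscle and of the atrium, was at 7.79 and 8.28 in mutants and at 7.21 and 7.55 in wild type, a difference of 0.66 ± 0.21 with no overlap that missed the threshold (limma adjusted p = 0.0618). *Myl1*, the alkali light chain of fast fibers, was at 5.84 and 6.28 in mutants and at 5.62 and 6.07 in wild type (0.22 ± 0.21, adjusted p = 0.448). *Myh8*, the perinatal heavy chain, was at 5.70 and 6.12 in mutants and at 5.54 and 5.79 in wild type (0.25 ± 0.17, adjusted p = 0.298). In *Myl1* and *Myh8* the groups overlapped, and the 2 arrays of each genotype lay farther apart than the group means. The difference of *Myl1* changed sign after cyclic loess and without mutant replicate 2 or wild-type replicate 2. *Myom1*, the other myomesin, had a difference of 0.36 with no overlap (adjusted p = 0.143). *Mybpc1*, the slow form of myosin-binding protein C, ran the other way, at 7.59 and 7.65 in mutants and at 7.74 and 7.81 in wild type (-0.15 ± 0.08, adjusted p = 0.191 in limma).

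Of the thin filament genes, 7 of 11 rose, against 21.6% of all probe sets, and 4 did not pass. Their median difference was 0.37. *Actc1*, the cardiac alpha-actin that embryonic skeletal muscle also makes, was the brightest of the 44 genes on the mutant arrays, at 9.18 and 9.98, against 7.85 and 8.42 in wild type. Its difference of 1.44 (95% confidence interval 0.60 to 2.28) is 2.72-fold (limma adjusted p = 0.0262), and after cyclic loess it was 1.42. *Acta1*, the skeletal alpha-actin, was at 8.06 and 8.82 in mutants and at 7.39 and 7.62 in wild type, a difference of 0.93 ± 0.26 or 1.91-fold (limma adjusted p = 0.0467). For both actins the groups did not overlap, and mutant replicate 2 was well above mutant replicate 1. Without wild-type replicate 2 or mutant replicate 2 neither was called by limma, and without mutant replicate 2 the differences were 1.04 for *Actc1* and 0.56 for *Acta1*.

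Troponin holds a subunit that binds tropomyosin (T), one that inhibits contraction (I) and one that binds calcium (C). *Tnni1*, the slow troponin I, was at 6.98 and 7.52 in mutants and at 6.24 and 6.32 in wild type, a difference of 0.96 ± 0.19 or 1.95-fold (limma adjusted p = 0.0188). *Tnnc1*, the troponin C of slow and cardiac muscle, was at 6.53 and 6.81 in mutants and at 5.96 and 6.12 in wild type (0.63 ± 0.13, limma adjusted p = 0.0204). Neither gene overlapped between genotypes. The fast forms *Tnnc2* and *Tnnt3* rose by 0.48 and 0.37 (limma adjusted p = 0.0186 and 0.0286), while fast *Tnni2* had a difference of 0.35 and missed the threshold (adjusted p = 0.0524). The troponin T of slow and of cardiac muscle did not follow. *Tnnt1*, the slow form, was at 5.43 and 5.72 in mutants and at 5.49 and 5.55 in wild type (0.05 ± 0.12), and *Tnnt2*, the cardiac form, was at 6.45 and 6.66 in mutants and at 6.75 and 6.62 in wild type (-0.13 ± 0.11). Both overlapped between genotypes and neither passed (limma adjusted p = 0.759 and 0.363), and the small difference of *Tnnt1* turned negative under all 3 other scalings and without mutant replicate 2.

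*Neb*, the nebulin that runs along the thin filament, rose by 0.37 (limma adjusted p = 0.0302). *Tpm2*, beta-tropomyosin, which smooth muscle and other cells also make, was at 7.24 and 7.57 in mutants and at 7.599 and 7.82 in wild type. Its difference of -0.31 ± 0.15, with no overlap, was the most negative of the 44 genes and did not pass (limma adjusted p = 0.164). The 4 genes with a negative difference, *Mef2c*, *Mybpc1*, *Tnnt2* and *Tpm2*, kept that sign under all 12 alternative fits of limma, and none was called lower in any of them.

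**Figure D3:**
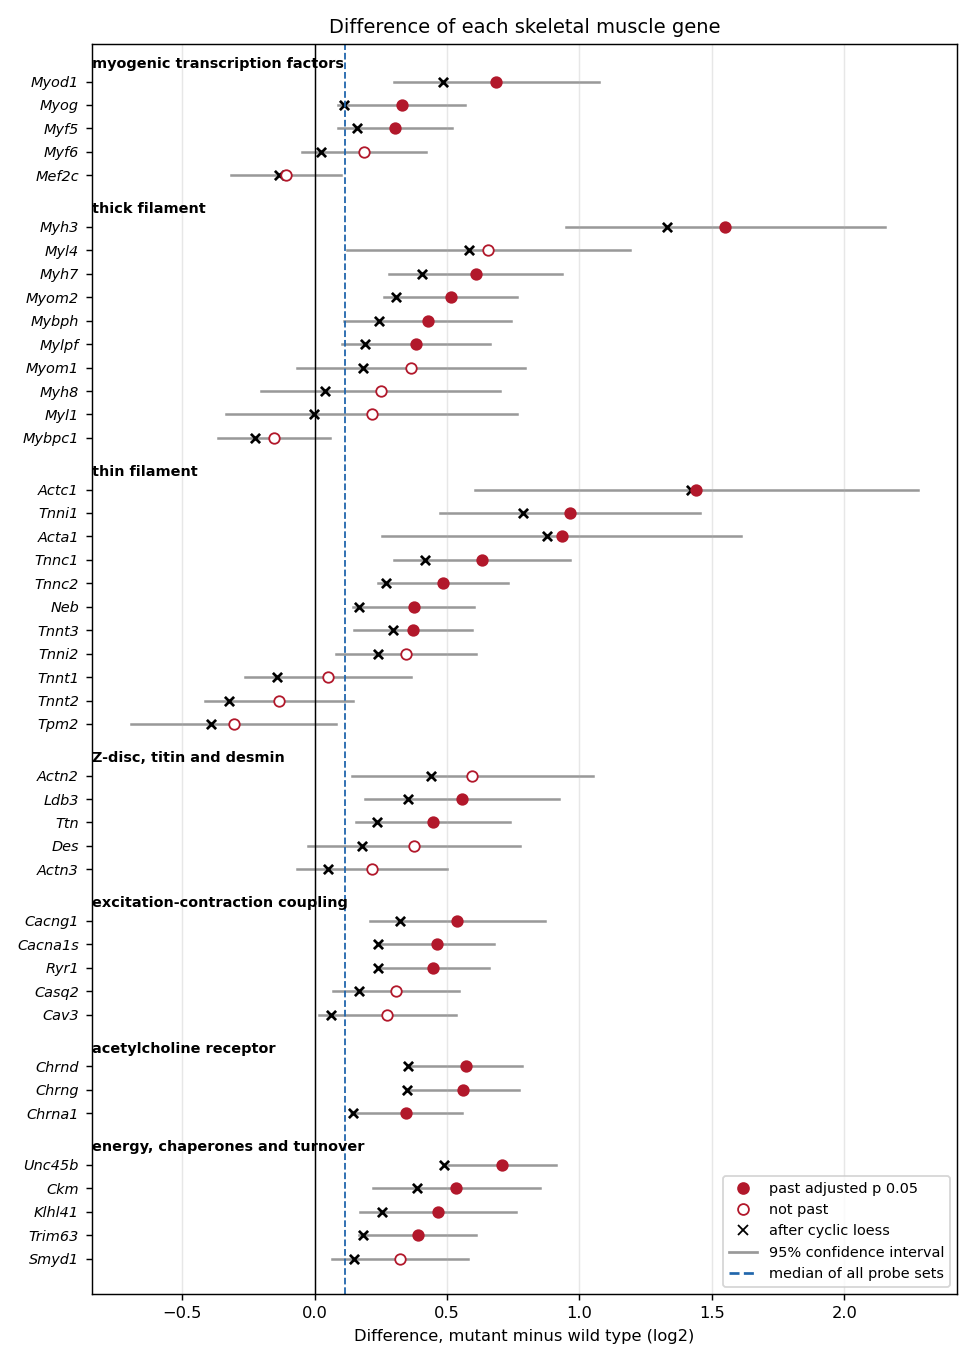
Difference of each of the 44 muscle genes (mutant minus wild type, log2, x axis), with limma's estimate (circle, filled where the adjusted p was under 0.05), its 95% confidence interval (grey line) and the estimate after cyclic loess (cross). The median of all probe sets is the dashed line at 0.11, and *Myh3* and *Actc1* lie at 1.55 and 1.44.

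Of the Z-disc, titin and desmin genes, 2 of 5 rose and 3 did not pass. At a level of 5 to 8, 25.2% of probe sets were called higher, so 2 of 5 is little to go by. In all 5 the mutant arrays lay above the wild-type arrays, against 54.6% of probe sets of that level. *Ldb3*, which stabilizes the Z-disc, was at 6.66 and 6.86 in mutants and at 6.05 and 6.37 in wild type (0.56 ± 0.14, limma adjusted p = 0.0364). *Ttn*, the giant spring protein titin, was at 5.96 and 6.16 in mutants and at 5.53 and 5.69 in wild type (0.45 ± 0.11, limma adjusted p = 0.0352). Both proteins serve heart and skeletal muscle alike. *Actn2*, the alpha-actinin of all striated muscle, had the largest difference of the group, 0.60 ± 0.18, but missed the threshold (adjusted p = 0.0526). *Actn3*, the alpha-actinin of fast fibers, and *Des*, the intermediate filament desmin, had differences of 0.22 and 0.38 (adjusted p = 0.177 and 0.115 in limma).

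Of the genes of excitation-contraction coupling, 3 of 5 rose, against 21.6% of all probe sets, and 2 did not pass. Their median difference was 0.45. *Cacna1s*, the voltage sensor of the fiber membrane, was at 6.30 and 6.35 in mutants and at 5.82 and 5.92 in wild type (0.46 ± 0.08, limma adjusted p = 0.0152). *Ryr1*, the calcium release channel that it opens, was at 6.58 and 6.67 in mutants and at 6.20 and 6.15 in wild type (0.45 ± 0.08, limma adjusted p = 0.0156). *Cacng1*, an accessory subunit of the same channel as *Cacna1s*, was at 6.12 and 6.35 in mutants and at 5.80 and 5.59 in wild type (0.54 ± 0.13, limma adjusted p = 0.0297). The sensor and the release channel thus differed by nearly the same amount. *Casq2*, a calcium-binding protein of the store found in cardiac and slow muscle, and *Cav3*, the muscle caveolin, had differences of 0.31 and 0.27 with no overlap and missed the threshold (limma adjusted p = 0.055 and 0.0866).

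All 3 acetylcholine receptor genes rose, against 21.6% of all probe sets, with a median difference of 0.56. *Chrnd*, the delta subunit, was at 6.25 and 6.28 in mutants and at 5.73 and 5.65 in wild type (0.57 ± 0.08, limma adjusted p = 0.0082). *Chrng*, the gamma subunit of the fetal receptor, was at 6.69 and 6.62 in mutants and at 6.12 and 6.07 in wild type (0.56 ± 0.08, limma adjusted p = 0.0089). *Chrna1*, the subunit that binds acetylcholine, was at 5.81 and 5.84 in mutants and at 5.44 and 5.52 in wild type (0.35 ± 0.08, limma adjusted p = 0.0289). The mean of the 3 signals was 6.25 and 6.25 on the mutant arrays and 5.76 and 5.75 on the wild-type arrays, so the arrays of a genotype were nearly equal. After cyclic loess *Chrnd* and *Chrng* were still called, each with a difference of 0.35, and *Chrna1* was not (0.15, limma adjusted p = 0.218).

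In the group of energy, chaperone and turnover genes, 4 of 5 rose, against 21.6% of all probe sets. *Unc45b*, the chaperone that folds the myosin head in striated muscle, was at 6.39 and 6.43 in mutants and at 5.73 and 5.67 in wild type. Its difference of 0.71 (95% confidence interval 0.50 to 0.91) is 1.63-fold and had the smallest adjusted p of the 44 genes (0.0051 in limma). *Ckm*, the muscle creatine kinase, was at 7.21 and 7.31 in mutants and at 6.59 and 6.86 in wild type (0.54 ± 0.12, limma adjusted p = 0.027). *Klhl41*, a Kelch protein needed for ordered myofibrils, was at 6.51 and 6.73 in mutants and at 6.08 and 6.23 in wild type (0.47 ± 0.11, limma adjusted p = 0.0329). In these 3 genes the mutant arrays lay above the wild-type arrays, and those of *Unc45b* were the closest to each other. *Trim63*, the ubiquitin ligase MuRF1 that marks sarcomere proteins for breakdown, rose by 0.39, and its mutant arrays both read 6.61 (limma adjusted p = 0.0245). *Smyd1*, a methyltransferase of striated muscle, had a difference of 0.32 and missed the threshold (adjusted p = 0.0592).

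Most of the 44 genes also moved together within each genotype. Mutant replicate 2 read above mutant replicate 1 for 38 of the 44 genes, or 86.4%, against 48.5% of all probe sets, with a median gap of 0.19. Wild-type replicate 3 read above wild-type replicate 2 for 36 genes, or 81.8%, against 58.4% of all probe sets, with a median gap of 0.15. Both gaps were positive for 31 genes or 70.5%, against 28.0% of all probe sets. The same arrays thus read most muscle genes higher than their partners did.

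In mutants the 4 widest gaps were those of filament genes. There *Actc1* differed by 0.80 between the arrays, *Acta1* by 0.75, *Myh3* by 0.63 and *Tnni1* by 0.54. In wild type the gap was 0.57 for *Actc1*, 0.22 for *Acta1*, 0.28 for *Myh3* and 0.08 for *Tnni1*, and the widest median gap there was that of the Z-disc, titin and desmin genes, 0.26, against 0.25 for thick filament and 0.15 for thin filament genes. Across the 44 genes, which share the same 4 arrays, the gaps of mutants and of wild type correlated with Pearson's r = 0.45 and Spearman's rho = 0.38, as a description. The acetylcholine receptor and coupling genes did not share the wild-type gap, with 1 of 3 and 2 of 5 genes higher on replicate 3. The myogenic transcription factors did not share the mutant gap. Of these, 2 of 5 were higher on mutant replicate 2, with a median gap of -0.02, though all 5 were higher on wild-type replicate 3. The replicates of a genotype thus held unequal muscle signal, and what made them unequal was not tested.

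**Figure D4:**
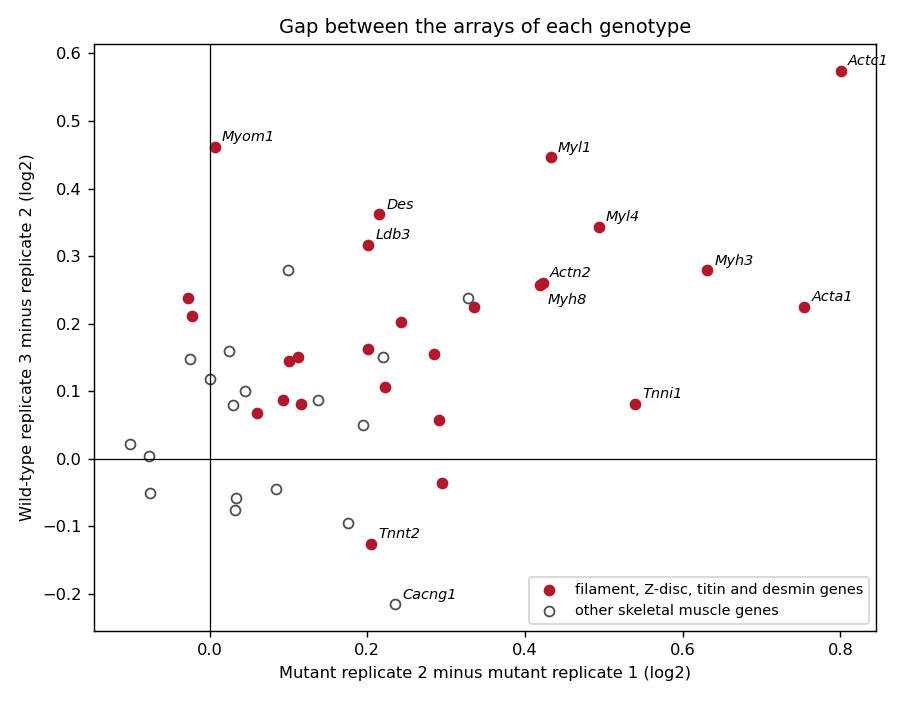
Gap between the 2 mutant arrays (replicate 2 minus replicate 1, log2, x axis) and between the 2 wild-type arrays (replicate 3 minus replicate 2, log2, y axis) for each of the 44 muscle genes, with filament, Z-disc, titin and desmin genes filled. Both gaps were positive for 31 genes, with *Actc1* farthest out at 0.80 and 0.57.

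Other genes of the muscle program, on lists that held 101 further genes of which 93 were measured, moved less evenly. Among the 93, 36 rose, 8 fell and 49 did not pass, against 21.6% higher and 15.7% lower over all probe sets, with a median difference of 0.29. By role, 12 of 37 other sarcomere genes rose and 3 fell, 6 of 16 genes of membrane excitation and calcium stores rose and 1 fell, and 3 of 8 genes of the neuromuscular junction rose and 0 fell. Of 9 genes of fusion and the membrane complex 5 rose and 2 fell, of 13 genes of muscle energy metabolism 5 rose and 2 fell, and of 10 progenitor and cofactor genes 5 rose and 0 fell. These shares were above the 21.6% of all probe sets called higher. The count of 12 of 37 is close to the 29.2% called higher at a level of 6 to 7, which holds that list's median level of 6.14.

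The largest increases included genes known mainly from muscle fibers and genes with wider use. *Atp2a1*, the calcium pump of fast fibers, was at 6.79 and 7.03 in mutants and at 6.03 and 6.15 in wild type (0.82, limma adjusted p = 0.008). *Mymk*, which makes myoblasts fuse, was at 6.88 and 7.46 in mutants and at 6.44 and 6.51 in wild type (0.70, limma adjusted p = 0.0493). *Dysf*, a membrane repair protein, was at 8.63 and 8.45 in mutants and at 7.77 and 7.51 in wild type (0.90, limma adjusted p = 0.0083). In these 3 genes the mutant arrays lay above the wild-type arrays. *Rbm24*, an RNA-binding protein of striated muscle that is also made in the inner ear, was at 8.73 and 8.89 in mutants and at 7.98 and 8.03 in wild type, again without overlap (0.81, limma adjusted p = 0.0055). *Mef2d*, a widely expressed MEF2 factor, rose by 1.03 at its brighter probe set (10.73 and 10.81 in mutants, 9.80 and 9.70 in wild type; limma adjusted p = 0.0034), while its other probe set had a difference of -0.22 that did not pass.

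Several of the 8 genes that fell are made outside muscle too. *Sgcd*, delta-sarcoglycan of the dystrophin complex, was at 7.04 and 7.18 in mutants and at 8.08 and 8.54 in wild type (-1.20, limma adjusted p = 0.0082). *Cacna2d1*, a calcium channel subunit shared with neurons, was at 8.60 and 8.57 in mutants and at 9.68 and 9.63 in wild type (-1.07, limma adjusted p = 0.0029), and its second probe set was lower as well. *Tpm1*, alpha-tropomyosin, was at 9.65 and 9.61 in mutants and at 10.17 and 10.48 in wild type (-0.70, limma adjusted p = 0.0146). In each of these the mutant arrays lay below the wild-type arrays. *Fhl1*, a LIM protein, *Sgcb*, beta-sarcoglycan, *Smpx*, a stretch-responsive protein, *Eno3*, the muscle enolase, and *Cox7a1*, a respiratory subunit, had differences of -0.58, -0.56, -0.37, -0.36 and -0.32, and *Fhl1* and *Smpx* lie on the X chromosome. *Trdn*, whose protein sits beside the release channel, was counted as higher by its brightest probe set, but it has 19 probe sets whose differences ran both ways.

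Adult forms of the fetal genes were chosen for mention after their values were seen. *Myh1*, the heavy chain of fast IIX fibers, rose by 0.46 (limma adjusted p = 0.0214), and *Myh2* and *Myh4*, the heavy chains of the other adult fast fibers, had differences of 0.15 and 0.17 that did not pass. *Chrne*, the subunit that replaces *Chrng* in the adult receptor, was at 6.04 and 5.996 in mutants and at 5.48 and 5.56 in wild type (0.50, limma adjusted p = 0.0117). The fetal and the adult receptor subunit thus both read higher in mutants, by 0.56 and 0.50. The mean levels of *Myh1* and *Myh4*, 5.13 and 5.25, were below 5.33, the 90th percentile of the receptor probe sets, so their differences cannot be ranked against that of *Myh3*.

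Markers of other tissues, the heart and tissues of the head among them, were read beside the muscle genes. Of 16 heart muscle markers 8 rose and 0 fell, against 21.6% of all probe sets called higher, both over the whole array and at a level of 5 to 6. Their median difference was 0.31 at a median level of 5.98, and the mean of the list was 6.11 and 6.13 on the mutant arrays and 5.79 and 5.83 on the wild-type arrays. The smallest p-values were those of *Corin*, *Gata4* and *Nkx2-5* (0.66, 0.51 and 0.52). *Myh6*, the heavy chain that defines heart muscle, rose by 0.31 at a low level, with 5.83 and 5.86 in mutants and 5.56 and 5.51 in wild type (limma adjusted p = 0.0345). *Tnni3*, the cardiac troponin I, overlapped between genotypes. Many of the 44 genes are also used by the heart, among them *Actc1*, *Myl4*, *Myh7*, *Tnnc1*, *Tnnt2*, *Actn2*, *Casq2*, *Ttn*, *Des*, *Ldb3*, *Mef2c*, *Unc45b* and *Smyd1*, and the part of heart RNA in their values was not tested.

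Smooth muscle markers did not rise as a group, with 1 of 10 higher and 1 lower, against 21.6% and 15.7% of all probe sets. Their median difference was 0.10. *Smtn*, a smooth muscle cytoskeletal protein, rose by 0.77, *Tagln*, an actin-binding protein, fell by 0.37, and *Acta2*, the smooth muscle actin, overlapped between genotypes at 8.06 and 8.92 in mutants and 8.91 and 9.24 in wild type. The contractile markers of smooth muscle thus ran both ways. Tendon markers had 3 of 9 higher, 0 lower and a median of 0.14, against 28.0% of probe sets called higher at a level of 9 to 10, with *Tnc* and *Thbs4* at 0.64 and 0.59 and *Fmod* at 10.44 and 10.66 in mutants against 9.36 and 9.74 in wild type, while *Scx*, the transcription factor of tendon progenitors, overlapped. Cartilage markers had 5 of 16 higher and 1 lower with a median of 0.13, close to the 27.0% of probe sets called higher at a level of 10 to 15 and to the median of 0.11 over all probe sets, with *Chad* and *Snorc* at 1.84 and 1.21 and *Epyc* at -0.68. Of 7 bone markers 1 rose (*Col1a1*, 1.26) and 1 fell (*Phex*, -0.81), against 29.2% higher and 11.3% lower at a level of 6 to 7. *Phex* lies on the X chromosome. The means of these lists moved with the muscle genes to different degrees, and their part in the muscle result was not tested.

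Motor neuron markers, for the nerves that reach muscle, split. Of 6, 2 rose and 1 fell, against 21.6% higher and 15.7% lower over all probe sets. *Slc18a3* and *Chat*, which load and make acetylcholine, rose by 0.50 and 0.47, and *Isl1*, which is also made in the cochlea, fell by 0.69. The 3 that did not pass were *Slc5a7* (-0.21, no overlap), *Prph* (-0.39, with overlap) and *Mnx1* (0.12, no overlap). Of 5 fat cell markers 1 rose (*Cidec*, 0.52), against 21.6% of all probe sets. Of 6 erythroid markers 4 rose and 1 fell, against 21.6% higher and 15.7% lower over all probe sets. *Hbb-y* and *Slc4a1* were at 1.10 and 0.50 and *Alas2* at -0.88. A hemoglobin gene and the first enzyme of heme synthesis in red cells thus moved in opposite directions. *Alas2* lies on the X chromosome, and the part of sex in its value was not tested. Of 12 cochlear markers 5 rose and 2 fell, against 28.0% higher and 28.5% lower among probe sets at a level of 9 to 10. Their median difference was 0.29 at a median level of 9.91, and *Pax2*, *Tectb* and *Epcam* were at 0.97, 0.60 and -0.90. The median of the 44 muscle genes, 0.41, was above that of each marker list, but the lists lie at different levels. All probe sets had a median of 0.20 at a level of 6 to 7, which holds the muscle genes' median level of 6.37. At 9 to 10, which holds the median level of the cochlear markers, it was 0.003. The medians therefore do not rank the muscle genes above the other lists, and no test was made.

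**Figure D5:**
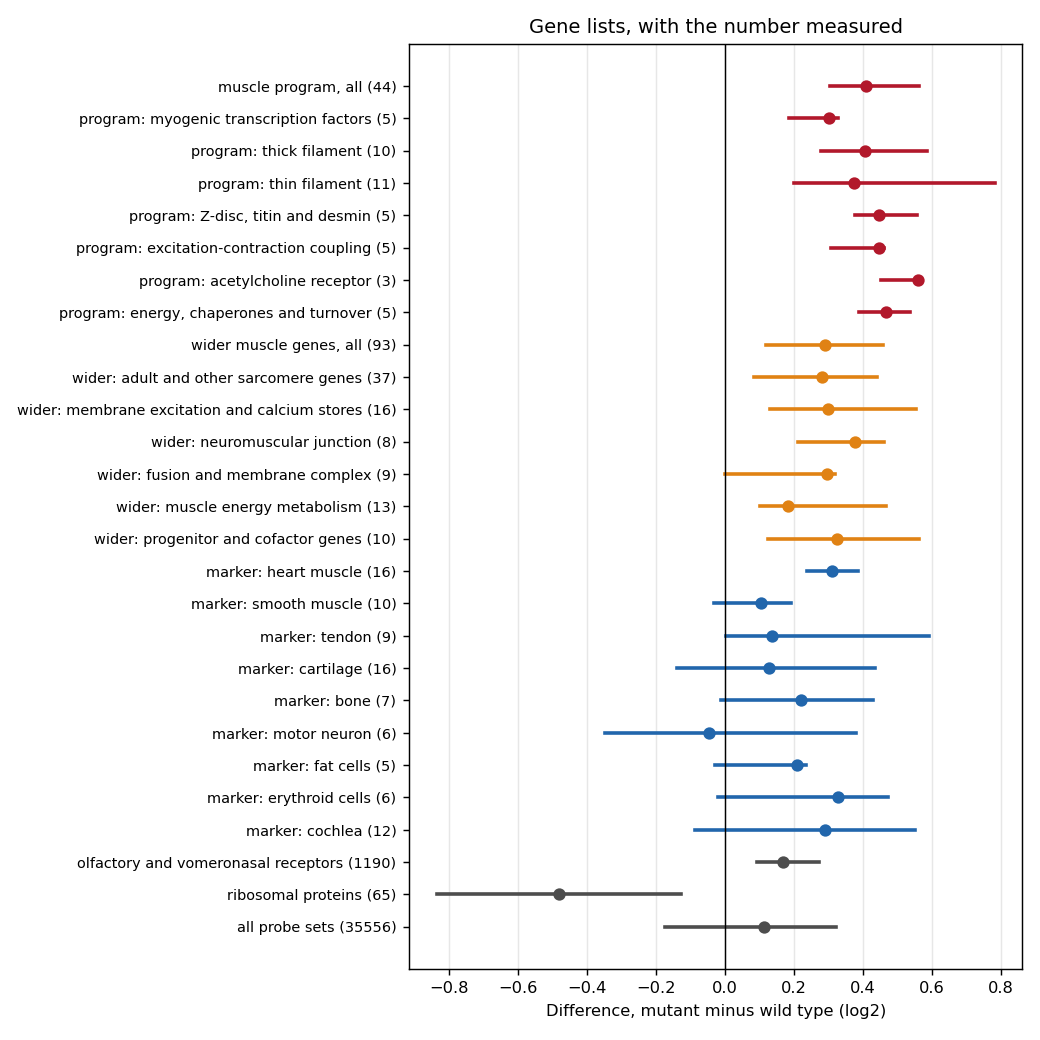
Median (point) and quartiles (line) of the difference, mutant minus wild type (log2, x axis), for the muscle program and its roles (red), other muscle genes (orange), markers of other tissues (blue) and reference sets (grey), with the number of genes or probe sets measured in brackets. The muscle program has a median of 0.41, heart markers 0.31, receptors 0.17 and ribosomal protein genes -0.48.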

How the data were processed

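RNA from whole E15 cochleas was measured on 4 Mouse Gene ST arrays, 2 per genotype. The authors deposited log2 signals made with RMA (background correction, normalization between arrays and summary of the probes of a probe set). RMA and the build mm8 are named in the submitters' processing notes, and no coordinates of that build were used. Control probe sets are not marked. Scanner files were not analysed here, so background and scaling could not be redone from the start, and a shift that depends on signal level stays in the values.

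Probe sets were named through the platform annotation, with 21789 of 35556 carrying 1 symbol. A gene with several probe sets is represented by the one with the highest mean over all arrays. Differences were fitted in R 4.3.3 by limma 3.58.1 (lmFit with eBayes) without covariates or a filter, and p-values were adjusted by Benjamini-Hochberg across the 35556 probe sets. Precision is limited by the 4 arrays, with 2 residual and 2.91 prior degrees of freedom. The code was tested on simulated data.

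The 44 genes, the gene lists and the alternatives were chosen with earlier results of these data known. Values on every array are given for all transcription factors, for the 3 largest differences past the threshold in each other role and for the 8 largest among the other muscle genes. The other muscle genes that fell and up to 3 markers of smallest p per list are named, most by their difference alone. Other genes are named where they complete a role. Alternatives were SAM (6 relabelings of the arrays), repeated quantile normalization, median scaling, leaving out probe sets at or below a level of 5.33, a trended prior, probe sets with 1 symbol, the mean of all probe sets, a threshold of 0.1 and leaving out each array. Cyclic loess and a fit without X- and Y-linked and unnamed probe sets were added after seeing the data. Promoter windows came from RefSeq (GRCm38.p6).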

Additional observations from a re-analysis of the deposited data

How the results depend on the processing

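Of the 44 muscle genes, 27 were called by limma, all higher. SAM called 41 (38 higher and 3 lower, which were *Mef2c*, *Mybpc1* and *Tpm2*), median scaling 15, repeated quantile normalization 16 and cyclic loess 6, and their median difference was 0.24 after cyclic loess. Leaving out each array in turn gave 3 to 21 called muscle genes, with the lowest count without mutant replicate 2. The dim filter, the trended prior, probe sets with 1 symbol, the mean of all probe sets, the looser threshold and the run without chromosomes X and Y gave 25 to 33. Of all probe sets past the threshold (13268, with 7695 higher and 5573 lower), SAM called 27021 (17778 higher and 9243 lower), and 5062 were higher after median scaling and 4562 after cyclic loess. Leaving out each array gave 4611 to 10895 in all, 1998 to 5470 higher and 2613 to 5425 lower. The share of lower calls was 42.0% as reported, 56.0% after median scaling, 47.5% after quantile normalization and 58.1% after cyclic loess, as the median of all probe sets moved to 0.03, 0.05 and 0.01, against 0.11 as deposited. Of the 93 other muscle genes, 44 were called (36 higher and 8 lower). SAM called 81 (70 higher), cyclic loess 27 (18 higher), and leaving out each array gave 9 to 32, 7 to 26 higher and 2 to 7 lower.

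Signs turned in a few small differences. *Myl1* was at -0.0017 after cyclic loess, -0.0004 without mutant replicate 2 and -0.0073 without wild-type replicate 2, within a range of -0.0073 to 0.44 when arrays were left out. *Tnnt1* was at -0.034 after median scaling, -0.087 after quantile normalization, -0.14 after cyclic loess and -0.095 without mutant replicate 2, within a range of -0.095 to 0.20. The median of the smooth muscle markers was -0.063 after cyclic loess, and that of the motor neuron markers ran between -0.087 and 0.26 when arrays were left out, with the highest value without wild-type replicate 3. Over the named genes and all settings, 931 values kept their side of the threshold, 181 lost the call, 47 gained it and 7 changed sign. The causes were not tested. No paired analysis was possible because the labels tie no mutant array to a wild-type array.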
